A study of Mus musculus with 10 samples.

Results

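The genes of focal adhesions and of the actomyosin cytoskeleton were examined in mouse bile duct epithelial cells grown in collagen I or in a laminin-rich matrix. The set holds 54 genes out of 18407 genes in the deposited table of read counts. They were chosen by symbol from a list of adhesion and contractility genes, with earlier results of these data known. All 54 were in the table, and 49 passed the filter on low counts that left 10789 genes for testing. Every sample was the NMC line, normal mouse cholangiocytes, which are the epithelial cells that line bile ducts. One group of 5 libraries came from double spheroids cultured for 6 days in collagen I at 1 mg/mL, and the other group of 5 from double spheroids in laminin and collagen I mixed 3:1 by volume, so collagen I was present in both. No other treatment was given, all libraries share 1 cell line, and RNA was measured as stranded poly(A) libraries from 30 ng of total RNA. Whether the 5 libraries of a group came from separate cultures is not in the labels, and the p-values therefore cover only the spread between these libraries, which may be technical.

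A focal adhesion is the place where integrins, the receptors that hold matrix proteins, are joined to actin filaments inside the cell. Talin and kindlin bind the integrin tails, vinculin strengthens the link to actin, and focal adhesion kinase, Src and paxillin signal from the site. Non-muscle myosin II pulls on the filaments when the kinase ROCK, acting downstream of the GTPase RhoA, raises phosphorylation of its light chains. Free actin monomers hold back the coactivators of serum response factor (SRF), so that many actin and adhesion genes are themselves read out through the CArG box, the DNA motif that SRF binds. In bile duct epithelium these proteins anchor cells to the basement membrane, which contains laminin.

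Total counts ran from 4424725 to 8129979 per library, and levels are given as CPM, the counts scaled to library size. A count of 0 allows up to 3 counts, which is 0.364 to 0.690 CPM depending on the library (counting error only). The 54 genes together took 1.43% to 1.59% of the counts. Of 12 cholangiocyte markers 10 had a mean of 1 CPM or more, led by Krt8 and Krt19, while Cldn4 and Prom1 were under 1 CPM. Endothelial markers summed to 1.34 to 2.32 CPM in collagen I and 1.26 to 2.72 CPM in laminin, with Cdh5, Kdr and Emcn at 0 counts. Leukocyte markers summed to 4.37 to 8.54 and 3.99 to 7.03 CPM, with Adgre1 at 0. Fibroblast and stellate markers summed to 650.0 to 802 and 659 to 822 CPM, led by Fbln2 and Fbln1, with Lrat, Rgs5, Thy1 and Hand2 at 0. Of these 14 markers 7 had a mean of 1 CPM or more. Among them, Col1a1 stood at 11.5 CPM in collagen I and 14.2 in laminin, Dcn at 8.09 and 3.47, and Pdgfra at 4.01 and 9.29. The part of such cells in the values below was not tested. Hepatocyte markers, led by Hnf4a and Alb, summed to 88.4 to 136 and 135 to 185 CPM, with Cyp2e1 and Ass1 at 0, and their part in the values below was not tested. Because these are bulk samples, fewer cells of a type and less RNA per cell cannot be told apart in any value below.

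The spheroids expressed the non-muscle forms of this machinery. Acta2, Tagln and Cnn1, the actin, transgelin and calponin of smooth muscle, were close to absent. Acta2 had 0, 2, 4, 1 and 3 counts in collagen I replicates 1 to 5 and 0, 0, 0, 0 and 1 in laminin. Tagln had 0, 1, 0, 3 and 1 counts in collagen I and 1, 0, 0, 0 and 2 in laminin. Cnn1 had 0, 3, 4, 0 and 0 counts in collagen I and 4, 0, 0, 2 and 0 in laminin. Among 11 other smooth muscle markers in the table, Lmod1 was at 0, Myh11, Actg2 and Myocd had 17, 3 and 3 counts over all 10 libraries, and 4 had a mean of 1 CPM or more (Smtn, Hspb6, Synm and Des). The summed level was 116 to 128 CPM in collagen I and 95 to 123 CPM in laminin. Parvb and Lims2, the second members of the parvin and PINCH families that partner integrin-linked kinase, were the other untested genes. Parvb had 4, 2, 3, 2 and 0 counts in collagen I and 13, 9, 9, 1 and 6 in laminin, so that laminin replicate 4 lay within the collagen range, and Lims2 had 10, 4, 2, 7 and 8 counts in collagen I and 9, 9, 4, 1 and 6 in laminin.

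Levels of different genes were compared per transcript length, as CPM per kb of the longest annotated transcript. Actb (beta-actin) stood highest, at 1391 ± 227 CPM per kb in collagen I and 1350.4 ± 138 in laminin (mean ± SD, n = 5 per group). Cfl1, which encodes the actin-severing protein cofilin, followed at 656 ± 127 and 626 ± 98 CPM per kb. Tpm4 at 427 ± 20.1 and 368 ± 70.1 and Actg1 (gamma-actin) at 376 ± 54.2 and 328 ± 29.1 CPM per kb came next. Genes that link integrins to actin stood lower than both actins, with Vcl at 44.2 ± 10.7 and 47.2 ± 3.63 and Tln1 at 33.3 ± 1.87 and 38.5 ± 5.03 CPM per kb. At the low end of the tested genes were Tln2 at 2.16 ± 0.255 and 2.98 ± 0.429, Mylk at 2.17 ± 0.682 and 1.59 ± 0.294, and Fermt1 at 0.632 ± 0.296 and 0.659 ± 0.336 CPM per kb. The order depends on the transcript assumed. With the median length of coding transcripts instead, a choice made after seeing the data, 8 of the 10 highest genes stayed among the 10 highest, and Myl6 moved from rank 12 to rank 3, at 499 CPM per coding kb in collagen I.

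**Figure D1:**
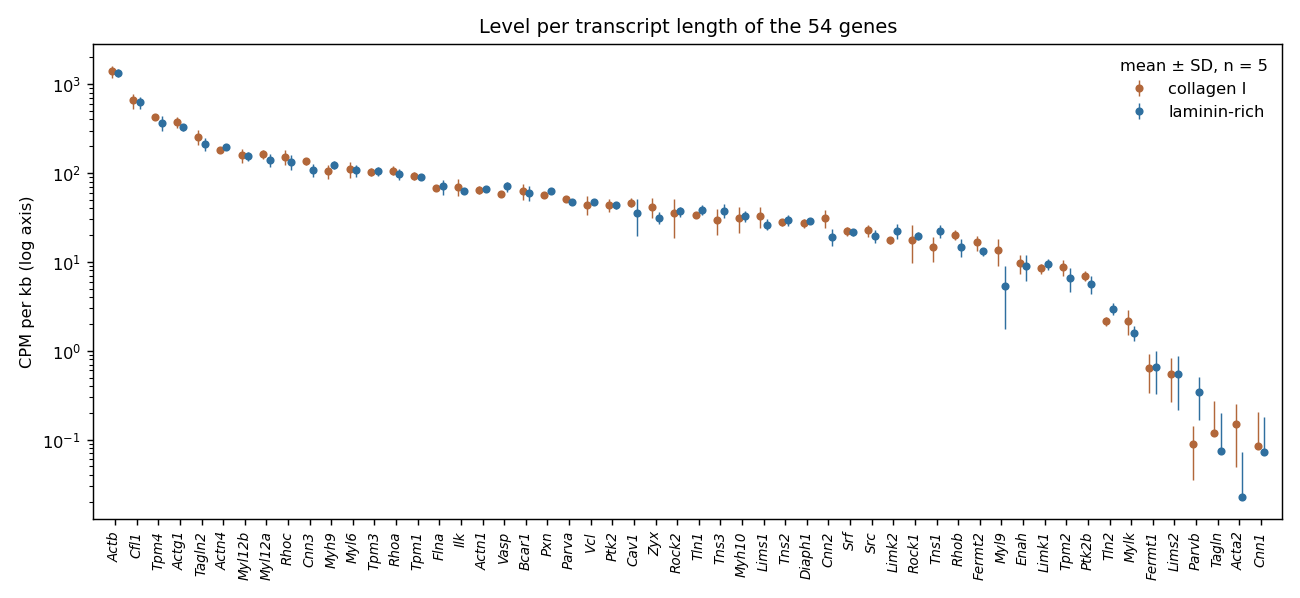
Level of the 54 genes as CPM per kb of the longest transcript (log axis), ordered by the mean over 10 libraries; points are group means and bars SDs (n = 5), with the lower bar left out where the SD exceeds the mean. Actb and Cfl1 stand at the top, and the smooth muscle genes Tagln, Acta2 and Cnn1 stand with Parvb at the bottom in both matrices.

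CArG boxes were looked for in the promoters, from 250 bases before to 50 bases after each RefSeq start site (GRCm38.p6). Of the 54 genes 44 had a promoter in the table, and 7 of these (15.9%) held a box, against 488 of 27025 genes (1.81%) over all promoters. The 7 were Vcl, Fermt2, Actg1, Cnn2, Myl9, Myl6 and Srf itself. The motif reads as the same pattern on both strands, and a match describes the letters only. Whether the motif had a part in any difference between the matrices was not tested. For 6 of them the first box, in capitals, is shown with its flanking bases. Cnn2 and Myl9 are shown for having the lowest log2 differences between the matrices, and the other genes for sharing their motif.
Cnn2, chr10:79988519-79988578, plus strand: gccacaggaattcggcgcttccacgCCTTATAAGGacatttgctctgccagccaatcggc
Myl9, chr2:156775278-156775337, plus strand: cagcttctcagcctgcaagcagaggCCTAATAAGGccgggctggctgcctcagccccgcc
Fermt2, chr14:45530235-45530294, minus strand: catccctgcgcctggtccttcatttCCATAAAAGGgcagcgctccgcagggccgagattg
Actg1, chr11:120348551-120348610, minus strand: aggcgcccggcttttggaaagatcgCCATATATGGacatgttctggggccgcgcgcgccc
Vcl, chr14:20929148-20929205, plus strand: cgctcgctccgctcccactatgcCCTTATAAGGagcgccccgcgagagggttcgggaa
Srf, chr17:46556210-46556269, minus strand: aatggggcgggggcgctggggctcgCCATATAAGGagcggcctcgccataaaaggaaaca
The box began 56 bases before the start site in Cnn2, 161 in Myl9, 204 in Fermt2, 90 in Actg1, 227 in Vcl and 82 in Srf. The Srf promoter held another box that began 62 bases before the start, in lower case within the bases shown. Cnn2 and Vcl carried the same 10 letters. Between the matrices, 6 of the 7 genes gave a log2 difference below 0 (median -0.20, from -1.30 in Myl9 to 0.096 in Vcl), and 19 of 34 tested genes without a box did (median -0.051). The rate over all genes tested was 48.3%. Of the genes below 0, Srf at -0.044 (SE 0.11) and Myl6 at -0.062 (SE 0.15) lay near 0 and changed sign in some alternatives. Myl9, Actg1 and Cnn2 have short transcripts (1128, 1952 and 2460 nt). The matrix difference went with transcript length across the 49 tested genes (Spearman's correlation 0.52). The rate among all genes with a box is not given here, so the count cannot be read as particular to the motif. No test was made of this count.

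None of the 49 tested genes differed between laminin and collagen I in edgeR's quasi-likelihood test after Benjamini-Hochberg adjustment over all genes (0.148% of all genes passed, or 16). Their lowest adjusted p in edgeR was 0.165, for Cnn2. At an unadjusted p under 0.05 there were 10 of 49, or 20.4%, against 11.7% of all genes tested. Of these, 4 were higher in laminin (8.16%, against 6.70%): Tln2, Tns1, Vasp and Limk2. The other 6 were lower (12.2%, against 4.95%): Cnn2, Myl9, Rhob, Cnn3, Zyx and Fermt2. DESeq2, which called 1.75% of its genes, called Cnn2 and Myl9 (adjusted p = 0.0228 and 0.0266), and limma-voom called 0 of 49. Without collagen replicates 1 to 3, which left only replicates 4 and 5 in collagen I, edgeR called 13 of 49 when it called 18.9% of all genes. Without collagen replicates 4 and 5 instead, it called 0 of 49 and 0.0456% of all genes. The median log2 difference (laminin minus collagen I) was -0.044 over the 49 genes and 0.0094 over all genes tested, and the median absolute difference was 0.15 and 0.14. For 32 of the 49 genes the 95% interval of the log2 difference excluded a change of 1.5-fold in either direction. Group ranges did not overlap for 1 gene, Tln2, or 2.04%, against 3.24% of all genes tested (1.94% higher and 1.31% lower). With the trend of each library on transcript length and GC content taken out, they did not overlap for 2 genes, Cnn2 and Rhob, both lower, against 3.90% of all genes.

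**Figure D2:**
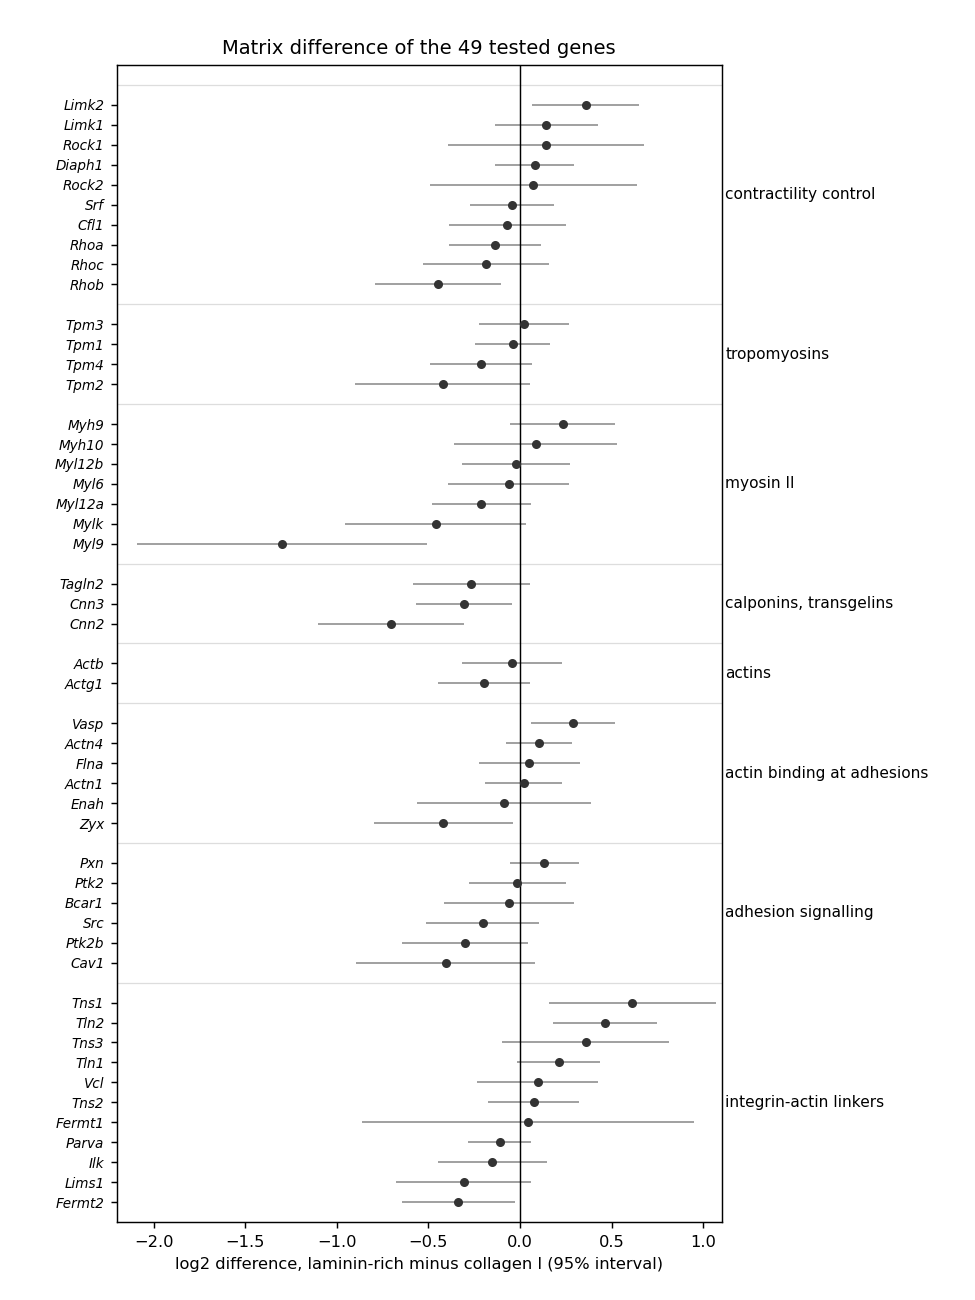
Log2 difference, laminin-rich minus collagen I, of the 49 tested genes, grouped by role; points are edgeR estimates and bars their 95% intervals. Myl9 and Cnn2 lie farthest below 0 and Tns1 and Tln2 farthest above it, and most intervals include 0.

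Cnn2 and Myl9 had the lowest adjusted p among the genes below 0. Cnn2 encodes calponin 2, an actin-binding protein of non-muscle cells, and gave 56.3, 60.6, 87.4, 96.4 and 85.7 CPM in collagen I replicates 1 to 5 and 52.9, 36.8, 37.8, 60.9 and 48.6 CPM in laminin. The groups overlapped only through laminin replicate 4, which lay above collagen replicates 1 and 2. Its means were 77.3 ± 17.7 and 47.4 ± 10.2 CPM (SD, n = 5), a log2 difference of -0.70 (SE 0.18) and 0.614 of the collagen level, with an edgeR adjusted p of 0.165. With the length and GC trend taken out, Cnn2 passed at -0.66 (edgeR adjusted p = 0.0333, with 0.964% of all genes passing), and over all alternatives its adjusted p ran from 0.0204 to 0.415. Myl9 encodes a regulatory light chain of myosin II that is abundant in smooth muscle. It gave 12.1, 10.5, 16.8, 23.2 and 13.5 CPM in collagen I and 3.92, 5.44, 2.71, 13.2 and 5.29 CPM in laminin, where 4 libraries lay below every collagen library and replicate 4 among them. Its log2 difference was -1.30 (SE 0.37), or 0.406 of the collagen level, with an edgeR adjusted p of 0.203. Without laminin replicate 4 it was -1.84 and passed (edgeR adjusted p = 0.0321, with 0.333% of all genes passing). Over all alternatives the adjusted p ran from 0.0266 to 0.455.

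Tln2 and Tns1, which both tie integrins to actin, had the largest differences above 0. Tln2 encodes talin 2, the less abundant talin here, and gave 25.7, 30.1, 27.8, 21.8 and 25.8 CPM in collagen I and 31.9, 36.1, 40.6, 42.1 and 30.1 CPM in laminin. Every laminin library lay above every collagen library, but the margin between laminin replicate 5 and collagen replicate 2 was under 0.1 CPM. The log2 difference of Tln2 was 0.46 (SE 0.13), or 1.38-fold, at an edgeR adjusted p of 0.204 (0.0396 to 0.569 over the alternatives). Scaled by DESeq2 size factors or by library size alone, or with the length and GC trend taken out, the Tln2 ranges overlapped. Tns1 encodes tensin 1, which binds integrin tails in mature adhesions. It gave 195, 165, 171, 81.1 and 116 CPM in collagen I and 187, 264, 251, 236 and 177 CPM in laminin, the 2 lowest values being collagen replicates 4 and 5. Its log2 difference was 0.61 (SE 0.21), with an edgeR adjusted p of 0.295 (0.0166 to 0.601 over the alternatives), and 0.32 once the length and GC trend was taken out. Tln2, too, was at a smaller log2 difference of 0.14 without that trend.

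**Figure D3:**
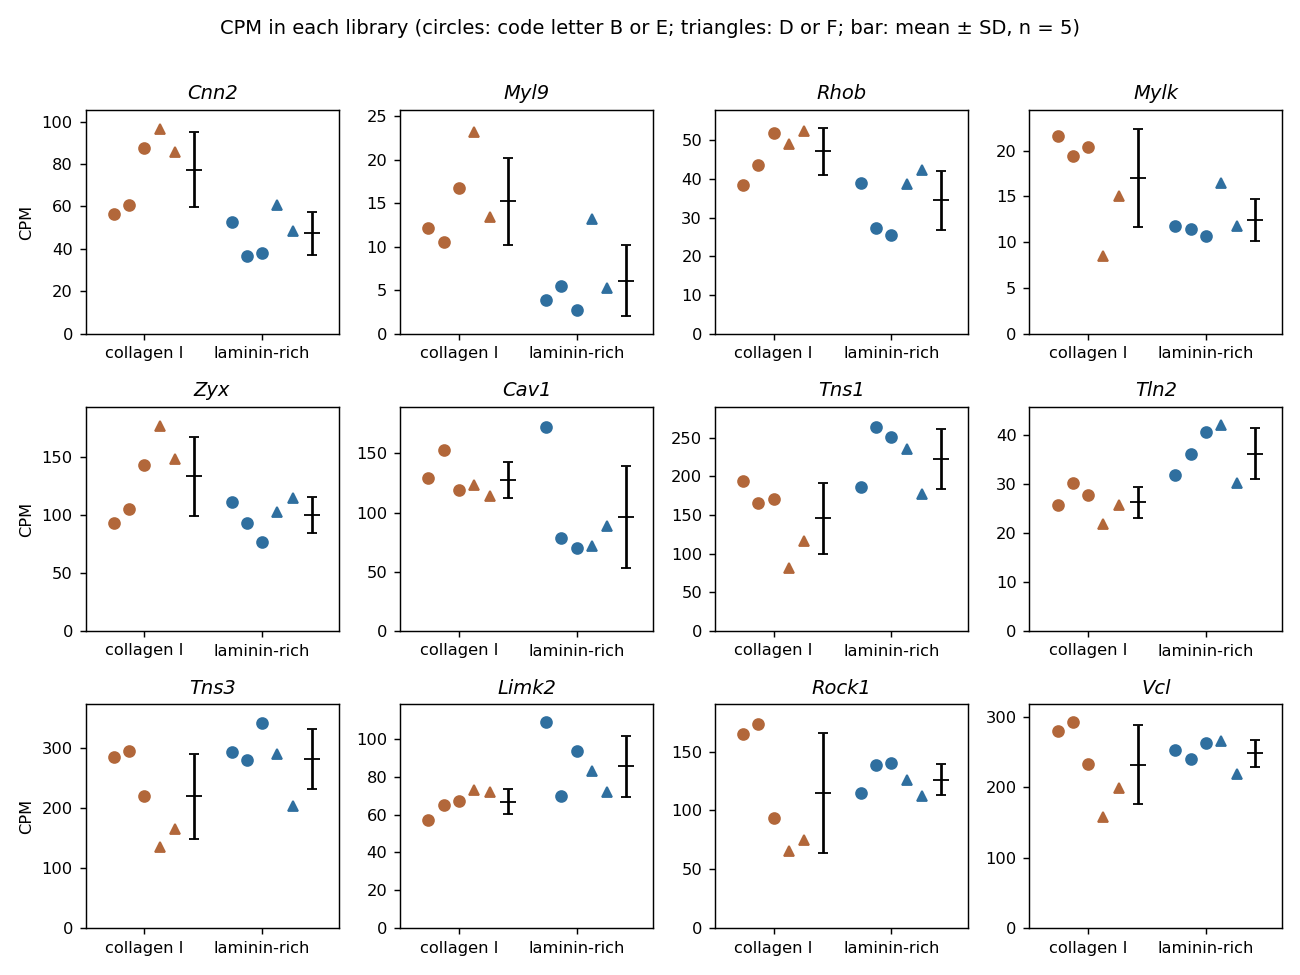
CPM of 12 genes in each library (replicates 1 to 5 from left to right in each matrix), with the mean and SD of each group (n = 5); the marker shape gives the code letter of the library. Laminin replicate 4 stands above the other laminin libraries for Myl9, Cnn2 and Mylk, laminin replicate 1 for Cav1, and collagen replicates 4 and 5 are low for Tns1, Tns3, Rock1 and Vcl.

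Of the 11 tested genes that link integrins to actin, 7 gave a log2 difference above 0 and 4 below, none called in edgeR, with a median of 0.075. Tln1 (talin 1), which activates integrins, gave 282, 291, 285, 252 and 287 CPM in collagen I and 301, 289, 361, 377 and 289 CPM in laminin. Only collagen replicate 2 lay within the laminin range of Tln1. Its log2 difference of 0.21 (SE 0.10) turned to -0.092 once the length and GC trend was taken out. Vcl (vinculin), which ties talin to actin, gave 279.9, 294, 233, 158 and 199.8 CPM in collagen I and 253, 241, 263, 267 and 219 CPM in laminin. The Vcl values in laminin all lay within the collagen range, and the log2 difference was 0.096 (SE 0.15). Ilk, the pseudokinase at the core of the complex with PINCH and parvin, gave 123, 136, 155, 208 and 178 CPM in collagen I and 155, 129.5, 138, 146 and 151 CPM in laminin. Collagen replicates 4 and 5 held its highest values, and its log2 difference was -0.15 (SE 0.14). Its partners Parva and Lims1 gave log2 differences of -0.11 (SE 0.080) and -0.31 (SE 0.17). Of the kindlins, which activate integrins with talin, Fermt2 gave -0.34 (SE 0.14), and Fermt1, the epithelial kindlin, stood at only 3.31 ± 1.55 and 3.45 ± 1.76 CPM, with a log2 difference of 0.042 and a 95% interval of -0.86 to 0.95. Tns3 (tensin 3) gave 286, 295, 220.3, 135 and 165 CPM in collagen I and 295, 281, 342, 292 and 204 CPM in laminin, with its lowest values in collagen replicates 4 and 5. The log2 difference was 0.36 (SE 0.21) for Tns3 and 0.075 (SE 0.12) for Tns2.

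Of the 6 genes that signal from adhesions, 5 gave a log2 difference below 0 and 1 above, none called in edgeR. Pxn (paxillin), a scaffold for kinases at the adhesion, gave 223, 214, 231, 188 and 215 CPM in collagen I and 246, 241, 223, 235 and 229.7 CPM in laminin. Collagen replicate 3 lay within the laminin range and replicate 1 just under it, and the log2 difference was 0.13 (SE 0.087) at an edgeR adjusted p of 0.592. Ptk2 (focal adhesion kinase) gave 234, 225, 219.7, 154 and 188 CPM in collagen I and 209, 209.5, 198, 218 and 176 CPM in laminin. The laminin values of Ptk2 all lay within the collagen range, with a log2 difference of -0.014 (SE 0.12) and a 95% interval of -0.28 to 0.25. Its relative Ptk2b (Pyk2) gave -0.30 (SE 0.16). Src, the kinase that acts with focal adhesion kinase, gave 73.1, 71.9, 100.2, 97.2 and 98.1 CPM in collagen I and 93.8, 60.6, 71.5, 81.7 and 74.1 CPM in laminin. The Src ranges of the 2 matrices overlapped, with a log2 difference of -0.20 (SE 0.14), and the Src substrate Bcar1 (p130Cas) gave -0.062 (SE 0.16). Cav1, the main protein of caveolae, gave 129, 152, 119, 123 and 114 CPM in collagen I and 172, 78.6, 70.1, 71.5 and 88.6 CPM in laminin. Laminin replicate 1 held the highest Cav1 value of all libraries and the other 4 laminin libraries lay below every collagen library. The Cav1 log2 difference was -0.40 (SE 0.23) with all libraries, at an edgeR adjusted p of 0.517 (0.0286 to 0.809 over the alternatives). Without laminin replicate 1 it was -0.73 and passed (edgeR adjusted p = 0.0286, with 0.591% of all genes passing).

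Of the 6 genes whose proteins bind or extend actin at adhesions, 4 gave a log2 difference above 0 and 2 below, none called in edgeR. Zyx (zyxin), which is recruited to adhesions and fibers under tension, gave 92.5, 105, 143, 177 and 148 CPM in collagen I and 111, 92.9, 76.2, 103 and 115 CPM in laminin. Collagen replicates 3, 4 and 5 lay above all laminin libraries, while replicates 1 and 2 lay among them, and the log2 difference was -0.42 (SE 0.18). Its partners in filament extension, Vasp and Enah, gave 0.29 (SE 0.11) and -0.088 (SE 0.22). Actn1 (alpha-actinin 1), a crosslinker of actin bundles, gave 248, 264, 261, 203 and 236 CPM in collagen I and 236, 258, 235, 262 and 238 CPM in laminin. All laminin values of Actn1 lay within its collagen range. The log2 difference was 0.020 (SE 0.096) for Actn1, with a 95% interval of -0.19 to 0.23, and 0.10 (SE 0.084) for Actn4. Flna (filamin A), which joins actin to integrins in networks, gave 579.9, 606, 592, 517 and 582 CPM in collagen I and 533, 538, 699, 734 and 478 CPM in laminin. Laminin libraries held both the highest and the lowest Flna values, and the log2 difference of 0.052 (SE 0.13) turned to -0.23 once the length and GC trend was taken out.

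Both tested actins gave small log2 differences below 0, not called in edgeR. Actb gave 2238, 2257, 2654, 3231 and 2969 CPM in collagen I and 2819, 2478, 2429, 2312 and 2926 CPM in laminin, where all values lay within the collagen range. Its log2 difference was -0.042 (SE 0.13), with a 95% interval of -0.32 to 0.23, and 0.051 once the length and GC trend was taken out. Actg1 gave 636, 604, 820.3, 788 and 823 CPM in collagen I and 734, 596, 621, 599 and 653 CPM in laminin. Collagen replicates 3 to 5 held the highest Actg1 values, and its log2 difference was -0.20 (SE 0.12). Of the calponins and transgelins, 3 of 5 genes were tested and all 3 gave a log2 difference below 0, in each of the 22 alternatives as well. None was called in edgeR without the length and GC correction when all libraries were used and group was the only term. Beside Cnn2 these were Cnn3, a calponin of non-muscle cells, at -0.30 (SE 0.12), and Tagln2, the non-muscle transgelin, at -0.27 (SE 0.15).

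Among 7 myosin II genes 2 gave a log2 difference above 0 and 5 below, none called in edgeR. Myh9, the heavy chain of non-muscle myosin IIA, gave 865, 919.9, 827, 588 and 686 CPM in collagen I and 917, 872, 959, 1037 and 781 CPM in laminin. Collagen replicates 4 and 5 held its lowest values, and the log2 difference of 0.23 (SE 0.13) turned to -0.025 once the length and GC trend was taken out. Myh10, the heavy chain of myosin IIB, gave 0.087 (SE 0.21). The light chains other than Myl9 gave -0.21 (SE 0.13) for Myl12a, -0.023 (SE 0.14) for Myl12b and -0.062 (SE 0.15) for Myl6. Mylk, the kinase that phosphorylates the regulatory light chain in response to calcium, gave 21.6, 19.4, 20.4, 8.54 and 15.1 CPM in collagen I and 11.7, 11.4, 10.7, 16.5 and 11.7 CPM in laminin. Collagen replicate 4 held the lowest Mylk value of all libraries and replicates 1 to 3 the 3 highest, and the log2 difference was -0.46 (SE 0.23) at an edgeR adjusted p of 0.459.

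The tropomyosins, which coat actin filaments, gave 1 log2 difference above 0 and 3 below, none called in edgeR. Tpm1 gave 228, 289.8, 275, 283 and 266 CPM in collagen I and 265, 247, 243, 274 and 275 CPM in laminin. The laminin values of Tpm1 lay within the collagen range, with a log2 difference of -0.041 (SE 0.094) and a 95% interval of -0.24 to 0.16. The log2 differences of Tpm2, Tpm3 and Tpm4 were -0.42 (SE 0.22), 0.021 (SE 0.11) and -0.21 (SE 0.13).

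Among the genes that control contractility and its outputs, 5 of 10 genes gave a log2 difference above 0 and 5 below, none called in edgeR. Rhoa, the switch that drives contractility, gave 498, 489.5, 519, 639 and 565 CPM in collagen I and 569.9, 487, 429, 429.8 and 550.3 CPM in laminin. Its ranges overlapped, at a log2 difference of -0.14 (SE 0.12). Rhob, a short-lived relative found on endosomes, gave 38.4, 43.7, 52, 49 and 52.4 CPM in collagen I and 38.9, 27.4, 25.4, 38.6 and 42.3 CPM in laminin. Only collagen replicate 1 lay within the laminin range of Rhob, though laminin replicate 5 came close to collagen replicate 2, and the log2 difference was -0.45 (SE 0.16) at an edgeR adjusted p of 0.307. Rhoc gave -0.19 (SE 0.16). Rock1, one of the kinases that RhoA activates, gave 165, 174, 93.9, 65.5 and 74.5 CPM in collagen I and 115, 139, 140.0, 126 and 112 CPM in laminin. All 5 laminin values lay in the gap between collagen replicates 1 and 2, which were higher, and replicates 3 to 5, which were lower. The log2 difference was 0.14 (SE 0.25) for Rock1 and 0.074 (SE 0.26) for its paralog Rock2. Limk2, a kinase that inactivates cofilin, gave 57, 65.3, 67.3, 73.4 and 72 CPM in collagen I and 109, 70.2, 93.9, 83.4 and 72 CPM in laminin. Laminin replicates 2 and 5 lay within the collagen range, and the log2 difference was 0.36 (SE 0.13). The related Limk1 gave 0.14 (SE 0.13), cofilin itself (Cfl1) -0.069 (SE 0.15), and Diaph1, a formin that RhoA activates to extend actin filaments, 0.080 (SE 0.10). Srf gave 57.3, 50.5, 59, 54.9 and 67 CPM in collagen I and 52.6, 54.4, 62.3, 52.1 and 58.9 CPM in laminin. The laminin values of Srf lay within the collagen range, with a log2 difference of -0.044 (SE 0.11) and a 95% interval of -0.27 to 0.18.

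Within families, the share of each paralog in the family's CPM per kb is given as a description. Actb made up 78.6% ± 1.45 of the actins in collagen I and 80.4% ± 1.01 in laminin (SD, n = 5). Among regulatory light chains, Myl9 made up 3.99% ± 0.789 and 1.84% ± 1.34, with overlapping ranges through laminin replicate 4, and Myl12b 47.2% ± 1.48 and 51.8% ± 0.911, with ranges that did not overlap. Myl12a and Myl12b share 29.2% of the 50-base stretches of the longest Myl12a transcript, so the authors' counting could split their reads. Tln2 made up 6.09% ± 0.418 of the talins in collagen I, with a highest value of 6.69%, and 7.18% ± 0.485 in laminin, with a lowest value of 6.73%. Among the shares of all families examined, only those of Myl12b and of both talins had ranges that did not overlap. A rate for such shares in other families is not given here. The length and GC trend was not taken out of the shares, and the Tln2 log2 difference was 0.14 without that trend. The Cnn2 share of the calponins was 18.7% ± 2.42 and 14.9% ± 1.39, the Tns1 share of the tensins 19.8% ± 3.23 and 24.9% ± 2.35, and the Tpm4 share of the tropomyosins 67.6% ± 1.61 and 64.2% ± 3.70, each with overlapping ranges. Rock2 made up 66.2% ± 1.18 of the ROCK kinases in collagen I and 65.3% ± 1.11 in laminin, although the Rock1 and Rock2 levels themselves varied widely among the collagen libraries.

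**Figure D4:**
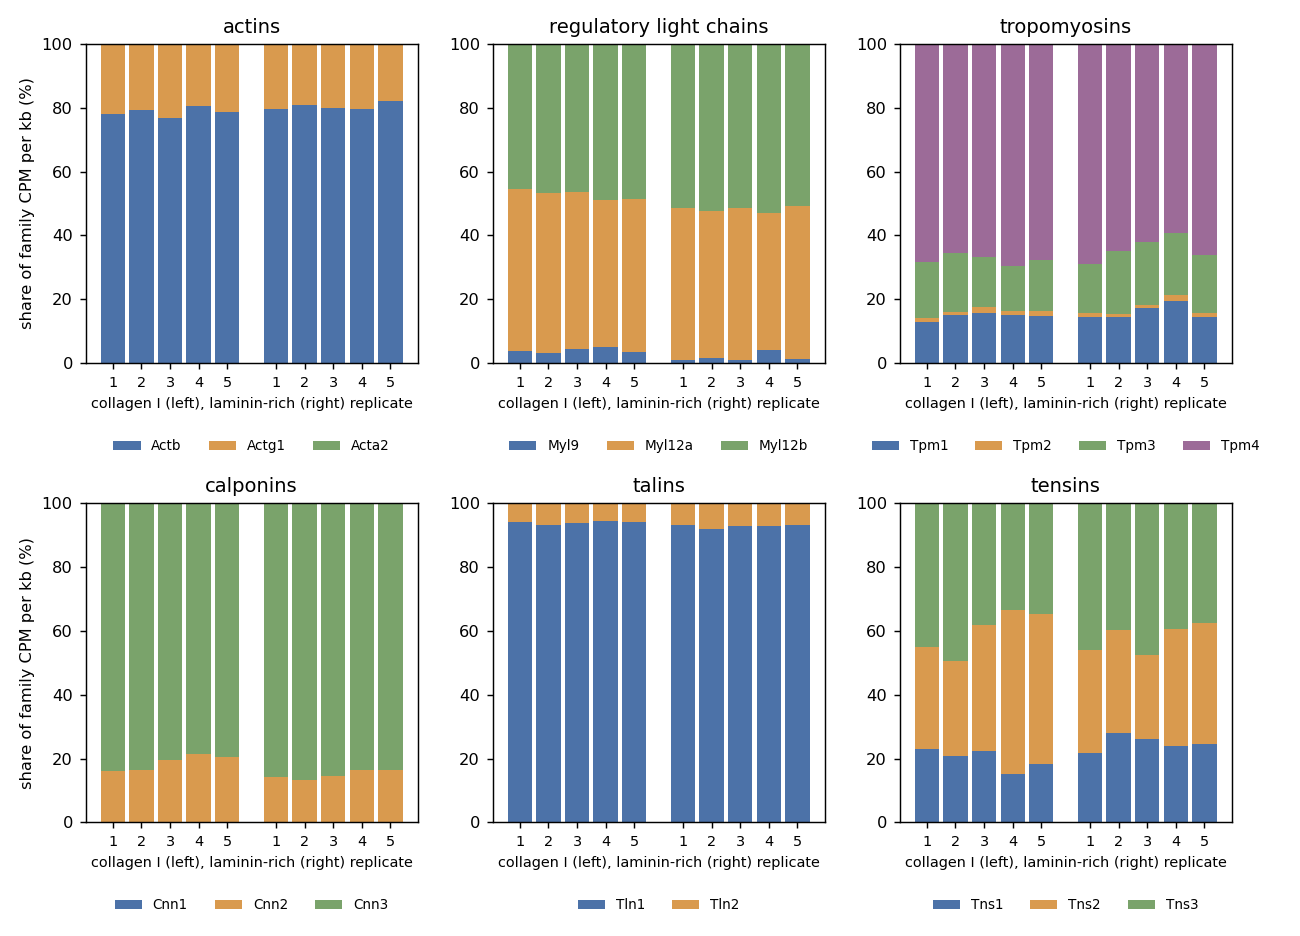
Share (%) of each paralog in the summed CPM per kb of its family, in each of the 10 libraries. Actb, Tpm4, Cnn3 and Tln1 hold the largest shares of their families in every library, and the smooth muscle genes Acta2 and Cnn1 are too small to see.

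The collagen libraries also differed among themselves. Library codes start with a letter that the labels do not explain, B for collagen replicates 1 to 3 and D for replicates 4 and 5. In edgeR's quasi-likelihood test with all 4 letters in one fit, 8 of 49 genes differed between D and B after adjustment (16.3%, against 15.8% of all genes tested). Ilk alone was higher in D (5.42% of all genes were), at a log2 difference of 0.48 (SE 0.14). The 7 lower in D (14.3%, against 10.4%) were Rock1 at -1.04 (SE 0.23), Rock2 at -1.04 (SE 0.26), Tns1 at -0.84 (SE 0.20), Myh10 at -0.84 (SE 0.19), Tns3 at -0.83 (SE 0.19), Mylk at -0.78 (SE 0.24) and Vcl at -0.59 (SE 0.16), with edgeR adjusted p from 0.0277 for Rock1 to 0.0484 for Mylk. Without collagen replicate 1, 2 or 4, edgeR called 0 of 49 genes and 0 of all genes. It called 17 without collagen replicate 3 (34.7%, against 33.8% of all genes) and 5 without collagen replicate 5 (10.2%, against 5.85%). It called 1 without laminin replicate 2 (2.04%, against 3.30%), 14 without laminin replicate 4 (28.6%, against 22.5%) and 14 without laminin replicate 5 (28.6%, against 21.9%). Once the length and GC trend was taken out it called 2 (4.08%, against 4.23%). The difference between the letters was larger in size than that between the matrices for 35 of 49 genes, or 71.4%, against 74.5% of all genes, and its median size was 0.262 on the log2 scale against 0.345 over all genes. Collagen replicate 4 held the highest of the 10 values for 13 of the 49 genes and the lowest for 18. The matching counts over all genes are not given here, so these cannot be read as particular to the members. Between the letters of the laminin libraries, F (replicates 4 and 5) and E (replicates 1 to 3), 0 of 49 genes differed in edgeR or DESeq2, with 2 (4.08%) at an unadjusted p under 0.05 in edgeR, Myl9 and Tpm2 (against 0% of all genes after adjustment and 3.84% unadjusted). Each letter occurs in 1 matrix, so letter and matrix cannot be told apart.

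These differences went with transcript length, as they did in the rest of the table. Across the 49 genes, Spearman's correlation of the D minus B difference with transcript length was -0.71, and across 10781 tested genes it was -0.65. The correlation of the matrix difference with length was 0.52 across the 49 genes and 0.39 across all, and 0.18 across the 49 once the length and GC trend was taken out. Genes share their libraries and are no independent replicates, so these are descriptions. In collagen replicate 4, the 16 genes with transcripts over 5000 nt had a median log2 deviation from the mean of the 10 libraries of -0.52, and the 16 with transcripts under 2500 nt one of 0.35. In laminin replicate 3 the same medians were 0.24 and -0.29. Without that trend, the median matrix difference of the 49 genes was -0.092, against -0.0045 over all genes, 10 genes changed sign, and 1, Cnn2, was called in edgeR. The part of transcript length in the values of single genes was not tested beyond that.

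**Figure D5:**
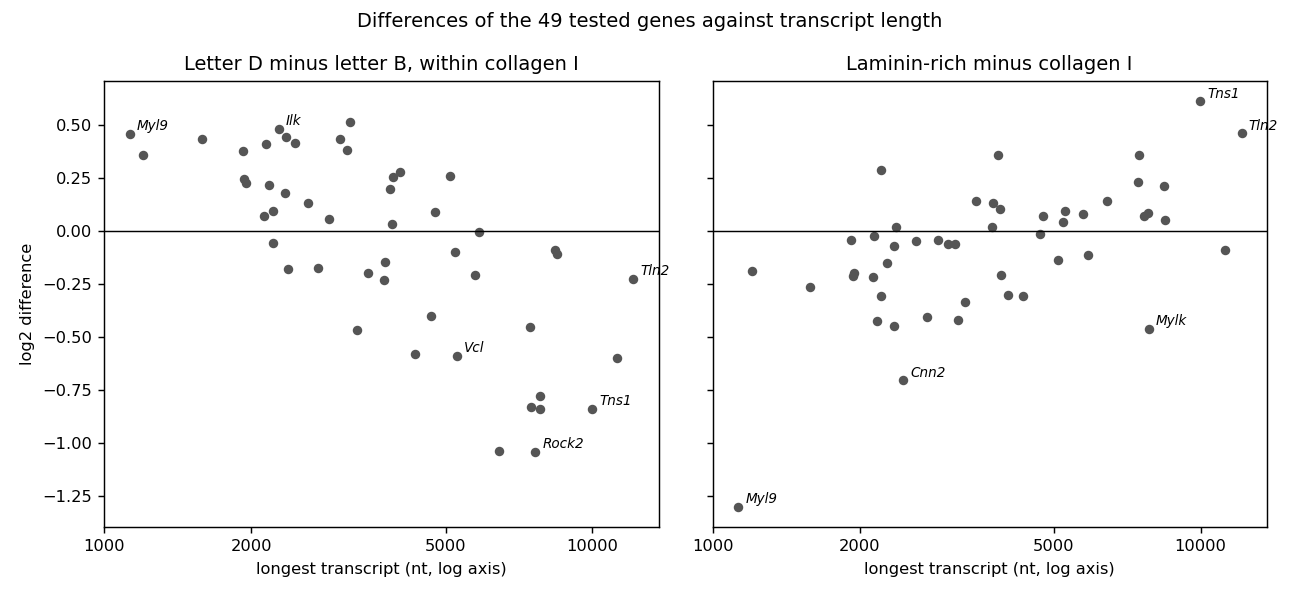
Log2 difference of the 49 tested genes against the length of the longest transcript (log axis), between code letters within collagen I (left) and between matrices (right). Long transcripts such as Rock2 and Tns1 lie below 0 on the left, and Tns1 and Tln2 lie above 0 on the right, where the short transcript of Myl9 lies lowest.

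Other genes of the same machinery were followed in 3 lists, and 0 of 110 tested passed in edgeR, the lowest adjusted p being 0.225, or in DESeq2. Of 38 further adhesion adaptors, 3 were higher and 1 lower at an unadjusted p under 0.05 (6.70% and 4.95% of all genes tested were, here and for the next lists), with a median log2 difference of -0.0028. The largest difference there was that of Tgfb1i1 (Hic-5, a paxillin relative) at -0.86 (SE 0.26), with 2.96 ± 0.402 CPM in collagen I and 1.64 ± 0.559 CPM in laminin. Of 32 regulators and effectors of RhoA and its relatives, 4 were higher and 1 lower, with a median of 0.13, and Ppp1r12b, a myosin phosphatase subunit, gave 0.75 (SE 0.46) and Dlc1, a GTPase-activating protein that turns RhoA off, 0.46 (SE 0.15). Dlc1 stood at 20.8 ± 3.93 CPM in collagen I and 28.7 ± 3.16 CPM in laminin, with ranges that did not overlap. Ranges did not overlap either for Tgfb1i1, which was lower, and for some other genes of the 3 lists. The same held for 3.24% of all genes tested. Of 40 genes of actin turnover and crosslinking, 1 was higher and 3 lower, with a median of -0.013. Vil1, a bundler of microvillar actin, gave 1.03 (SE 0.46) at 1.37 ± 0.951 and 2.70 ± 1.05 CPM, and the bundler Fscn1 -0.41 (SE 0.18).

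In GRCm38 coordinates, Cnn2 lies on chromosome 10 from 79988584 to 79996062, Myl9 on chromosome 2 from 156775420 to 156781658, Tln2 on chromosome 9 from 67217087 to 67559703 and Tns1 on chromosome 1 from 73910231 to 74124449. Rhob lies on chromosome 12 from 8497661 to 8500009, Mylk on chromosome 16 from 34745210 to 35002420, Tns3 on chromosome 11 from 8431652 to 8664535 and Limk2 on chromosome 11 from 3344256 to 3409189. Exons of 14 of the 54 genes overlap those of a gene on the opposite strand, among them Tln1 with Creb3, Vcl with Ap3m1, Zyx with Epha1, Ilk with Rrp8 and Taf10, and Mylk with E130310I04Rik, and whether strand was used in counting is not given in the sources used here. Near-identical copies make some values uncertain. Of the 50-base stretches of the longest transcript, Actg1 shared 56.7% with other annotated genes, Tpm3 17.0%, Cnn3 14.8%, Actb 14.2%, Tpm4 12.1%, Cfl1 9.11% and Ilk 8.12%.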

How the data were processed

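Poly(A) RNA of 10 libraries was compared, 5 per matrix. The authors deposited whole-number read counts per gene symbol, one column per library, without normalization. The submitters' processing notes name GRCm38, mm10 and DESeq2. Aligner, counter, strand setting and annotation were not given in the sources used here. Columns were matched to samples by library code.

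Genes were kept by filterByExpr, scaled with TMM and tested with edgeR 4.0.16 (quasi-likelihood F test, group only, two-sided, R 4.3.3), with Benjamini-Hochberg adjustment over all genes and a threshold of 0.05. CPM uses TMM-scaled library sizes, and log2 CPM a prior count of 2. SEs are the log2 difference divided by the square root of F. Transcript lengths and positions came from GENCODE M21, promoters from RefSeq. The closest 2 libraries differed by more than sampling noise. Only the edgeR test between the groups was tried on simulated counts, which held no trend on transcript length.

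Members and lists were chosen with earlier results of these data known. Genes are given with values in every sample if called, if their group ranges did not overlap, if among the 4 largest differences per direction, or if in a fixed set of 21 genes, and other members by their difference. From the 3 other lists the 2 largest differences each are named, except 1 gene that is not reported here. Alternatives were DESeq2 1.42.0, limma-voom (limma 3.58.1), other scalings and filters, the replicate block, code letters, left-out libraries, a spline trend (5 degrees of freedom each) on length and GC content removed through an offset, and 1 surrogate variable (sva 3.50.0).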

Additional observations from a re-analysis of the deposited data

Results flagged for a closer look

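Among 98 groups of 5 libraries (49 genes in 2 matrices), 5 held a value far from the other 4 by Dixon's criterion, where chance gives about 5%, or 4.9. In collagen replicate 4, Tln1 stood at 7.98 log2 CPM, the nearest collagen library being at 8.14, and Flna at 9.01 against 9.18. Vasp stood at 7.13 log2 CPM in collagen replicate 3, against 6.99. Mylk stood at 4.07 log2 CPM in laminin replicate 4, against 3.59. Cav1 stood at 7.43 log2 CPM in laminin replicate 1, against 6.47, which is 172 CPM.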

How the results depend on the processing

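The count of genes called between the matrices was 0 of 49, and also 0 in each alternative not named next. Shares of all genes called are given in brackets, against 0.148% in the main fit. It was 2 with DESeq2 (1.75%) and 2 as the mean of code letters E and F minus that of B and D (Tns1 and Myl9, 0.918%). It was 1 with the length and GC offset (Cnn2, 0.964%) and 5 with 1 surrogate variable (Tns1, Lims1, Cnn2, Fermt2 and Tln2, 4.28%). It was 13 without the letter B libraries (8 higher, 5 lower, 18.9%). Without single libraries it ran from 0 to 1. The 1 was Cav1 without laminin replicate 1 (0.591%) and Myl9 without laminin replicate 4 (0.333%). The median difference was -0.016 with 1 surrogate variable, and over single left-out libraries it ran from -0.12 without collagen replicate 1 to -0.032 without collagen replicate 5. Of the other adhesion and actin genes 3 were called with 1 surrogate variable and 31 without the letter B libraries. The count with ranges that did not overlap was 2 with the length and GC offset (Cnn2 and Rhob, both lower, against 3.90% of all genes). It was 0 with library size only and 1 to 5 without single libraries. With DESeq2 size factors in edgeR the gene was Parva, lower in laminin, in place of Tln2. With fewer libraries, ranges separate more easily for every gene. The share of all genes in these settings is not given here, so these counts cannot be read as particular to the members. The count between letters D and B was 2 with the length and GC offset and 0 to 17 without single libraries. The cause of these changes was not tested.

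Some log2 differences changed sign. With the length and GC offset Tln1 was -0.092, Flna -0.23, Actn1 -0.024, Myh9 -0.025 and Actb 0.051. With 1 surrogate variable Actn1 was -0.016, Flna -0.0025 and Actb 0.050. Without the letter D libraries Vcl was -0.11, Ilk 0.061, Actn1 -0.069, Actb 0.12, Rock1 -0.19 and Srf 0.0090. Without the letter B libraries Ptk2 was 0.21 and Mylk 0.037. Ptk2 was 0.034 as a mean of letters, and Actn1 -0.0041 without a filter. Without single libraries, Ptk2 ran from -0.099 to 0.031, Vcl from -0.016 to 0.17, Actn1 from -0.038 to 0.047, Actb from -0.12 to 0.035, Rock1 from -0.0039 to 0.32, Srf from -0.11 to 0.015 and Flna from -0.052 to 0.12.

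With the replicate number as a block, 0 of 49 genes and 0 of all genes were called. The deviations of same-numbered libraries from their group means had correlations of -0.31, 0.26, -0.11, -0.33 and 0.48. Only collagen replicate 5 correlated best with the laminin library of its own number. Whether equal numbers mark a pairing is not in the labels and was not tested. Depth limits Acta2, Tagln, Cnn1, Parvb and Lims2, which were not tested.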
